A study of Capra hircus with 2 samples.

Results

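The transcripts described here encode 10 enzymes that remove superoxide and peroxides: the superoxide dismutases SOD1 and SOD2, catalase (CAT), the glutathione peroxidases GPX1 and GPX3, and the peroxiredoxins PRDX1, PRDX2, PRDX3, PRDX5 and PRDX6. They were chosen by accession from the 11663 RefSeq transcripts listed in either of 2 RNA sequencing libraries, and 10 of 10 had reads in both. Both libraries came from longissimus thoracis, a muscle along the back, of Chinese Xuhuai goats (Capra hircus). One was made from 6-month muscle, and the other from muscle of fetuses collected on day 90, where gestation lasts 150 days. No treatment, genotype or sex is given for either library, nor is the number of animals behind it. The sampling text of the 6-month library repeats the description of embryo collection, which leaves the sampling of the older animals undescribed. No gene symbols stand in the deposited lists. The definition of the set gives its members as cattle RefSeq transcripts, and the symbols rest on that definition.

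Superoxide leaks from the mitochondrial respiratory chain and from oxidase enzymes, and superoxide dismutases convert it into hydrogen peroxide. Catalase, the glutathione peroxidases and the peroxiredoxins then remove the peroxide, by different reactions and in different parts of the cell. Muscle fibres with much oxidative metabolism are known to hold many mitochondria, and mitochondria carry dedicated enzymes for both steps.

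Unique reads on the listed accessions numbered 9144138 in the 6-month library and 12811117 in the fetal library, and these are the read totals used here. Of these reads, the 10 transcripts took 0.193% at 6 months and 0.114% in the fetal library. Levels are given as the authors' deposited RPKM, unique reads normalised to the listed transcript length and to the library's read total. Each stage had 1 library, so no test between stages was possible and no difference has a replicate check. The 95% intervals below are exact Poisson intervals for levels and exact conditional binomial intervals for ratios. Where a ratio within a library is compared between libraries, they are exact conditional intervals of the odds ratio of the read counts. They cover counting error only and compare the libraries, not the stages. RPKM is relative to the read total of its library, and over the 8201 accessions that reached 1 RPKM in each library the median log2 ratio of 6-month to fetal RPKM was -0.58. In whole muscle, more cells of a type and more RNA per cell cannot be told apart. Muscle, erythroid, endothelial, fibroblast, macrophage and adipocyte marker lists could not be matched to the listed accessions, so the tissue label and the mix of cells were not checked, and their part in the results was not tested.

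Of the 10 transcripts, 4 were higher at 6 months by at least 1 log2 unit of RPKM + 1, and 0 were higher in the fetal library by as much. The 4 were the secreted GPX3, the mitochondrial PRDX3 and SOD2, and the cytosolic PRDX6. Over all 9705 accessions that reached 1 RPKM in one library or the other, 9.46% were higher at 6 months by that measure, and the fetal library was higher for 35.1%. The median difference was 0.61 log2 units over the 10 transcripts and -0.61 over all accessions compared. When the median ratio was set to 1 by scaling (centring), CAT joined the 4, making 5 of 10 higher at 6 months and 0 higher in the fetal library. Of all accessions, 17.2% were then higher at 6 months, and for 22.3% the fetal library was higher.

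**Figure D1:**
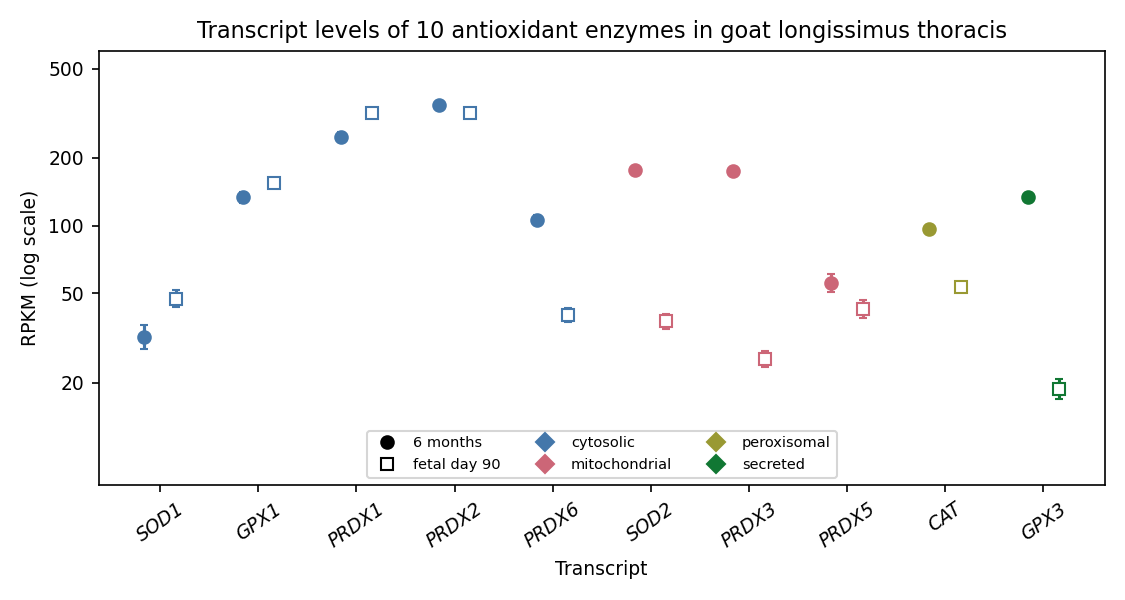
RPKM (log scale) of each of the 10 transcripts in the 6-month library (filled circles) and the fetal library (open squares), coloured by compartment, with 95% Poisson intervals. GPX3, PRDX3 and SOD2 lie at 134, 176 and 178 RPKM at 6 months and at 18.7, 25.5 and 37.4 RPKM in the fetal library, while PRDX1 and PRDX2 lie at 249 and 344 RPKM at 6 months and at 317 and 316 RPKM in the fetal library.

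The superoxide dismutases differed in opposite directions on the deposited RPKM. SOD2 (NM_201527), the manganese enzyme of the mitochondrial matrix, had 2335 reads and 178 RPKM (interval 170 to 185) at 6 months, against 689 reads and 37.4 RPKM (34.7 to 40.3) in the fetal library. Its level was thus 4.75-fold higher at 6 months (4.36 to 5.18). SOD1 (NM_174615), the copper and zinc enzyme of the cytosol, had 253 reads and 31.9 RPKM (28.1 to 36.1) at 6 months, against 525 reads and 47.3 RPKM (43.3 to 51.5) in the fetal library. The ratio for SOD1 was 0.675 (0.579 to 0.786), which is less than the threshold of 1 log2 unit, and after centring on the median ratio its difference was 0.01 log2 units, so the lower SOD1 level at 6 months depends on the scaling between libraries. The SOD2 level was 5.56 times the SOD1 level at 6 months (4.89 to 6.36) and 0.791 times the SOD1 level in the fetal library (0.705 to 0.888). Such a ratio within a library does not depend on the scaling between libraries, and it was 7.03-fold higher at 6 months (5.90 to 8.39).

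Catalase (NM_001035386), a haem enzyme of peroxisomes that splits hydrogen peroxide into water and oxygen, had 2015 reads and 96.2 RPKM at 6 months, against 1557 reads and 53.1 RPKM in the fetal library. The level was 1.81-fold higher at 6 months (1.70 to 1.94), a difference of 0.85 log2 units that stays under the threshold. With the other scalings it came to 0.96 to 1.42 log2 units, and it passed 1 in 3 of the 4.

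The glutathione peroxidases, selenoenzymes that use glutathione to reduce peroxides, also parted. GPX3 (NM_174077), the form secreted into plasma and extracellular fluid, had 1937 reads and 134 RPKM (interval 128 to 140) at 6 months, against 379 reads and 18.7 RPKM (16.8 to 20.6) in the fetal library. The ratio of 7.16 (6.41 to 8.01) was the largest of the 10, though its interval overlaps that of PRDX3. GPX1 (NM_174076), the widely expressed form of the cytosol and of mitochondria, had 1132 reads and 134 RPKM at 6 months, against 1837 reads and 155 RPKM in the fetal library. The GPX1 ratio was 0.863 (0.801 to 0.930) on RPKM, but its direction turned with the median ratio (0.36 log2 units), with the trimmed mean ratio (0.37) and with library totals that left out the 50 most abundant accessions (0.02). Within the 6-month library the GPX3 and GPX1 levels did not differ beyond counting error (interval of their ratio 0.929 to 1.08), whereas in the fetal library GPX3 was at 0.121 times the GPX1 level (0.108 to 0.135).

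Peroxiredoxins reduce peroxides with a reactive cysteine, and most of them are recharged by thioredoxin. PRDX3 (NM_174432), the peroxiredoxin of the mitochondrial matrix, had 2643 reads and 176 RPKM (interval 169 to 182) at 6 months, against 538 reads and 25.5 RPKM (23.4 to 27.8) in the fetal library. The level was 6.88-fold higher at 6 months (6.27 to 7.57). PRDX5 (NM_174749), which is found in mitochondria, peroxisomes and the cytosol, had 449 reads and 55.7 RPKM at 6 months, against 481 reads and 42.6 RPKM in the fetal library. Its ratio of 1.31 (1.15 to 1.49) was far below that of PRDX3, although both enzymes occur in mitochondria. The PRDX3 level was 3.15 times the PRDX5 level at 6 months (2.85 to 3.49) and 0.599 times it in the fetal library (0.528 to 0.678).

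Among the cytosolic peroxiredoxins, PRDX6 stood apart from PRDX1 and PRDX2. PRDX6 (NM_174643), which draws on glutathione and also acts as a phospholipase, had 1626 reads and 106 RPKM at 6 months, against 861 reads and 40.0 RPKM in the fetal library. Its level was 2.65-fold higher at 6 months (2.43 to 2.88). PRDX2 (NM_174763), a thioredoxin-dependent enzyme known for its abundance in red blood cells, had 3215 reads and 344 RPKM at 6 months, against 4141 reads and 316 RPKM in the fetal library, a ratio of 1.09 (1.04 to 1.14). PRDX1 (NM_174431), its close relative in the cytosol of most cells, had 2007 reads and 249 RPKM at 6 months, against 3586 reads and 317 RPKM in the fetal library. The PRDX1 ratio of 0.784 (0.742 to 0.828) became a difference of 0.23 log2 units in favour of 6 months after centring on the median or the trimmed mean ratio. Relative to PRDX2, PRDX1 was lower at 6 months, with 0.723 times the PRDX2 level there (0.683 to 0.764) and 1.002 times it in the fetal library (0.958 to 1.05).

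**Figure D2:**
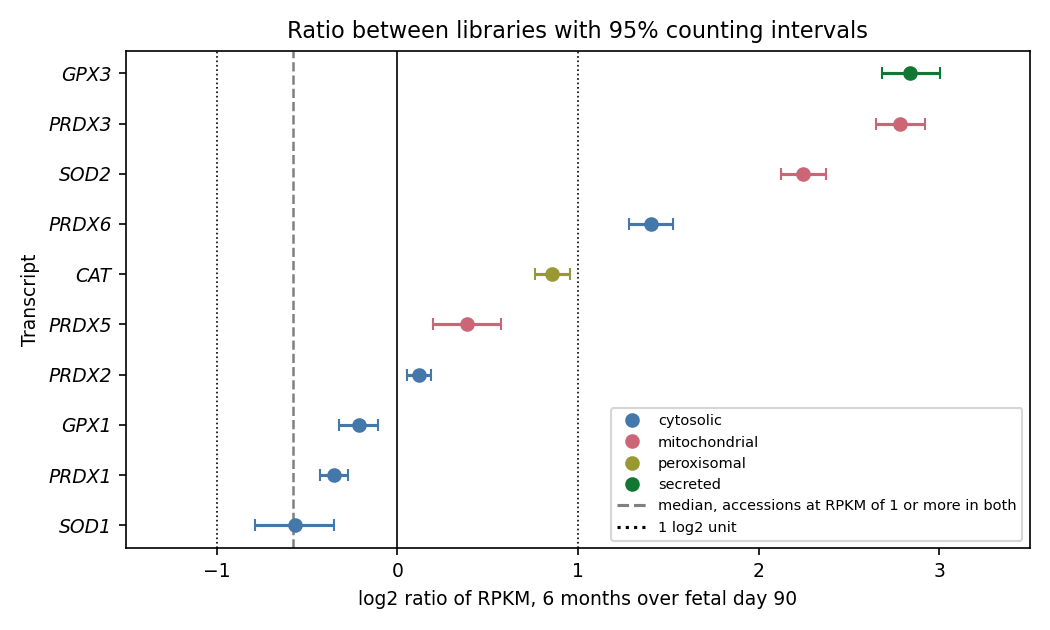
log2 ratio of RPKM, 6 months over fetal, for each of the 10 transcripts (points) with 95% conditional binomial intervals, ordered by size and coloured by compartment. The dashed line marks the median ratio of the 8201 accessions that reached 1 RPKM in each library (-0.58), and all 10 points lie above it, SOD1 by the least at -0.57, with an interval of -0.79 to -0.35 that holds the line.

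Grouped by compartment, the summed RPKM was higher at 6 months for the mitochondrial enzymes, as it was for the single secreted and peroxisomal ones, and nearly equal in both libraries for the cytosolic enzymes. SOD2, PRDX3 and PRDX5 summed to 409 RPKM at 6 months and 106 RPKM in the fetal library, a ratio of 3.87 (3.66 to 4.10, from a normal approximation to the counting error of the sums). Without PRDX5 the ratio was 5.61. The 5 cytosolic members SOD1, GPX1, PRDX1, PRDX2 and PRDX6 summed to 864 RPKM at 6 months and 875 RPKM in the fetal library, a ratio of 0.987 (0.959 to 1.02). This sum hides the higher PRDX6 level at 6 months beside lower SOD1, GPX1 and PRDX1 levels on RPKM, and with the other scalings the sum was higher at 6 months, by 0.56 log2 units after centring on the median ratio.

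The mitochondrial members made up 32.1% of the summed RPKM of mitochondrial and cytosolic members at 6 months, against 10.8% in the fetal library. This share is free of the scaling between libraries. It was 32.6% at 6 months, against 8.03% in the fetal library when GPX1 and PRDX5, which occur in more than 1 compartment, were left out. Counted in reads without regard to length, it was 39.7% at 6 months (exact binomial interval 38.9% to 40.6%) and 13.5% in the fetal library (12.9% to 14.1%).

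**Figure D3:**
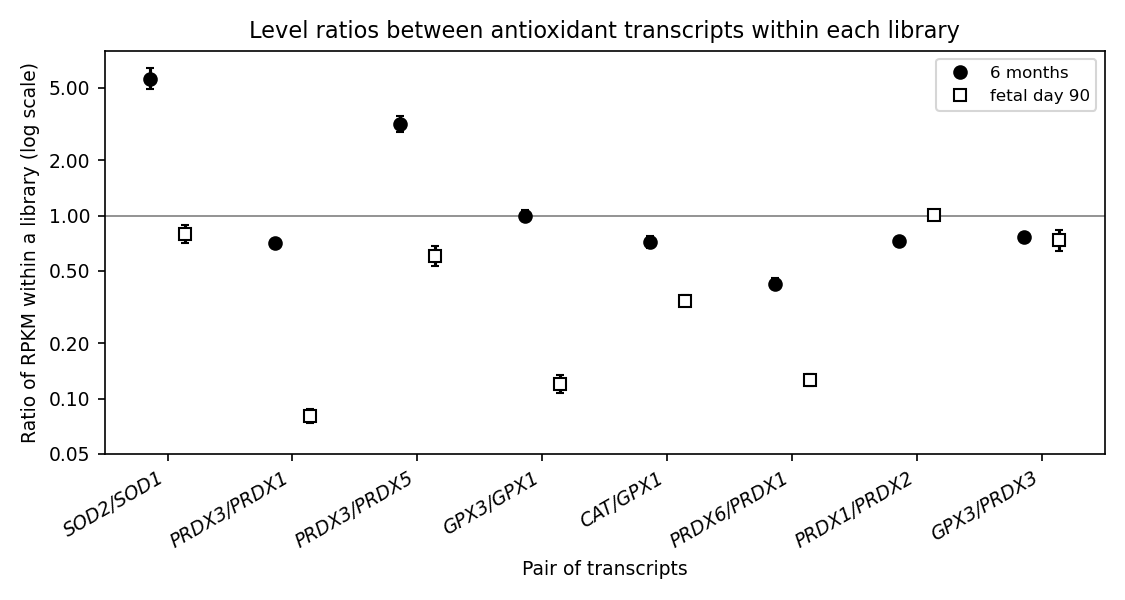
Ratio of RPKM (log scale) between the members of 8 pairs within the 6-month library (filled circles) and within the fetal library (open squares), with 95% intervals for counting error. SOD2/SOD1, PRDX3/PRDX1 and GPX3/GPX1 differ most between the libraries, while GPX3/PRDX3 lies at 0.761 at 6 months, against 0.732 in the fetal library.

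Ratios within each library compared the proportions of selected pairs of transcripts between the 2 libraries. GPX3 and PRDX3 kept nearly the same proportion, with a GPX3 level of 0.761 times the PRDX3 level at 6 months (0.717 to 0.807) and 0.732 times it in the fetal library (0.640 to 0.836). The SOD2 level was 1.01 times the PRDX3 level at 6 months (0.956 to 1.07) and 1.47 times it in the fetal library (1.31 to 1.64), so the proportion of SOD2 to PRDX3 was lower at 6 months. PRDX3 was at 0.706 times the PRDX1 level at 6 months (0.666 to 0.749) and at 0.0805 times it in the fetal library (0.0734 to 0.0881), the ratio that differed most among the 14 computed, by 8.78-fold (7.87 to 9.79). The interval overlaps that of GPX3 over GPX1, which differed by 8.29-fold (7.25 to 9.50). The 14 pairs were a selection, and not all pairs of the 10 transcripts were computed. CAT was at 0.720 times the GPX1 level at 6 months and at 0.343 times it in the fetal library, a 2.10-fold difference (1.90 to 2.32).

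Summed by enzyme class, the dismutases reached 209 RPKM at 6 months and 84.7 RPKM in the fetal library, a ratio of 2.47. The glutathione peroxidases reached 267 RPKM at 6 months and 174 RPKM in the fetal library, a ratio of 1.54. The 5 peroxiredoxins together reached 930 RPKM at 6 months and 741 RPKM in the fetal library, a ratio of 1.25, and stayed the largest class in both. All 10 summed to 1503 RPKM at 6 months and 1053 RPKM in the fetal library, a ratio of 1.43 (1.40 to 1.46).

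**Figure D4:**
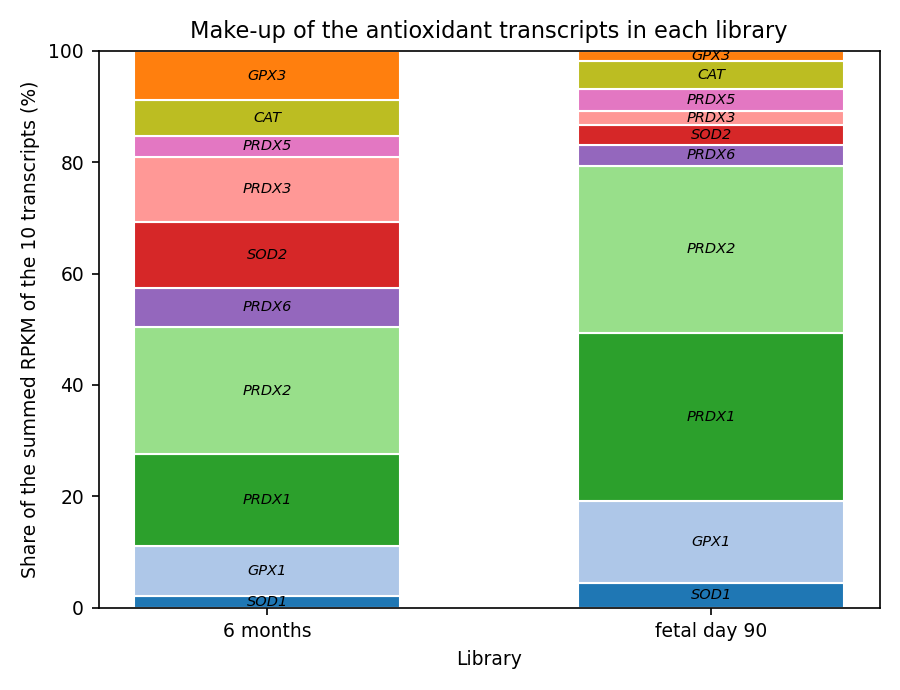
Share (%) of each transcript in the summed RPKM of the 10, in the 6-month library (left) and the fetal library (right). PRDX1 and PRDX2 make up 16.5% and 22.9% at 6 months, against 30.1% and 30.05% in the fetal library, and SOD2 and PRDX3 make up 11.8% and 11.7% at 6 months, against 3.55% and 2.42% in the fetal library.

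The order of levels differed between the libraries. Each order compares different genes, and sequence differences between goat reads and the listed transcripts can lower some more than others. At 6 months the order ran PRDX2, PRDX1, SOD2, PRDX3, GPX1, GPX3, PRDX6, CAT, PRDX5 and SOD1. In that library, SOD2 and PRDX3 did not differ beyond counting error, and neither did GPX1 and GPX3. The fetal order was PRDX1, PRDX2, GPX1, CAT, SOD1, PRDX5, PRDX6, SOD2, PRDX3 and GPX3. There, PRDX1 and PRDX2 did not differ beyond counting error, nor did any of the adjacent pairs from SOD1 to SOD2. The highest level was 10.8 times the lowest at 6 months and 17.0 times the lowest in the fetal library. SOD1 was the lowest of the 10 at 6 months and in position 5 in the fetal library, and GPX3 was in position 6 at 6 months and the lowest in the fetal library. Among all listed accessions, GPX3 ranked 531 of 10850 at 6 months and 3462 of 11393 in the fetal library. PRDX3 ranked 424 at 6 months, against 2696 in the fetal library, and PRDX2 ranked 245 at 6 months, against 248 in the fetal library.

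Set against the whole table, the difference of GPX3 was matched or exceeded toward 6 months by 1.62% of the 9705 accessions compared, that of PRDX3 by 1.72%, that of SOD2 by 2.85% and that of PRDX6 by 6.25%. The share of calls toward 6 months depended on abundance. At a mean RPKM of 10 to 100, where GPX3 and PRDX6 were called among 5 members, 11.3% of 4051 accessions were higher at 6 months, and for 32.4% the fetal library was higher. At a mean RPKM of 100 to 1000, where SOD2 and PRDX3 were called among 5 members, 29.7% of 592 accessions were higher at 6 months, and for 28.7% the fetal library was higher. SOD2 and PRDX3, with mean levels of 107 and 101 RPKM, lie just inside the upper band and reach it through their 6-month levels, so the bands are not independent of the difference and nothing is read from these shares.

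**Figure D5:**
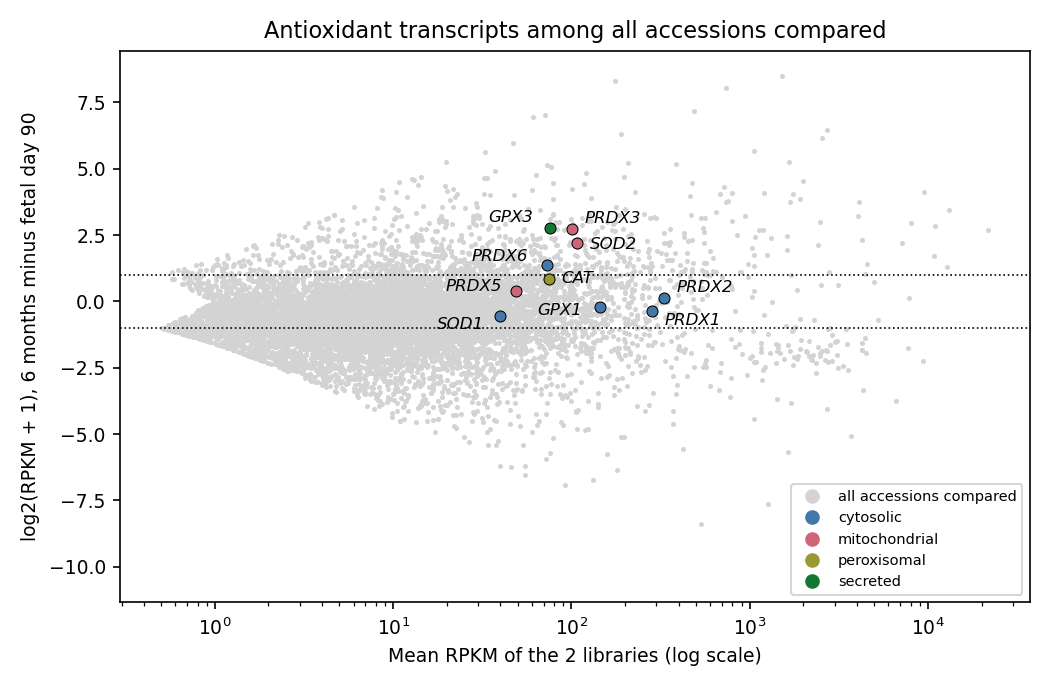
Difference in log2(RPKM + 1), 6 months minus fetal, against the mean RPKM of both libraries (log scale) for the 9705 accessions compared (grey) and the 10 transcripts (coloured by compartment), with dotted lines at 1 and -1. GPX3, PRDX3, SOD2 and PRDX6 lie above the upper line at 2.78, 2.74, 2.22 and 1.38, and none of the 10 lies below the lower line.

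The part of each listed transcript covered by reads was 70.7% to 97.5% at 6 months and 71.4% to 94.6% in the fetal library. SOD1 had the lowest coverage in both, at 70.7% at 6 months, against 71.4% in the fetal library, although its reads of 90 bases amounted on average to 26.3 reads over each base at 6 months and 54.5 in the fetal library. Coverage was higher at 6 months by 8.56 percentage points for SOD2, 7.72 for PRDX6 and 5.81 for CAT. It was higher by 2.91 points for GPX3 and 1.40 points for PRDX3, the members with the largest ratios of reads. Average depth was also higher at 6 months for each of these. It was 146 reads per base, against 43.1 in the fetal library, for SOD2, 87.0 against 46.1 for PRDX6 and 79.2 against 61.2 for CAT. For GPX3 it was 110 at 6 months, against 21.5 in the fetal library, and for PRDX3 145 against 29.4. Of the 1955 accessions with a depth of at least 20 in both libraries, 3.73% were higher in 6-month coverage by as much as SOD2 or more, 4.65% by as much as PRDX6 and 6.91% by as much as CAT. PRDX2 went the other way, with 79.8% at 6 months, against 89.9% in the fetal library, at an average depth of 283 reads per base at 6 months, against 365 in the fetal library. In covered bases that was 816 of 1022 at 6 months and 919 of 1022 in the fetal library. Of the same 1955 accessions, 2.61% were lower in 6-month coverage by as much as PRDX2 or more. The 1955 accessions were not matched to the members on the difference in depth, and the part of depth in these shares was not tested. The positions of the uncovered bases were not analysed here.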

How the data were processed

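The authors deposited, per the file headers, 1 list for each library that gives for every RefSeq accession its unique read count, its length in bases, the percent of that length covered and the RPKM. The aligner, genome build, transcript set, strand handling and treatment of reads shared between near-identical copies are unstated (not given in the sources used here). Counts as deposited summed exactly to the totals in the headers, and the lowest count listed was 1 in each library. An accession absent from a list was taken to have 0 reads, which the sum cannot show if the total was made from the listed counts. RPKM was recovered from the counts, within a relative error of 1e-06, for 10850 of 10850 accessions at 6 months and 11393 of 11393 in the fetal library. The span of a read was taken as 90 bases, the covered length of accessions with 1 read. Goat reads were counted on what the set's definition gives as cattle transcripts, so sequence differences can lower a level and affect genes unequally, which bears on comparisons between genes more than on those between libraries.

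Differences were computed over the whole table as log2(RPKM + 1) at 6 months minus fetal. They were called at 1 log2 unit among accessions that reached 1 RPKM in one library or the other. The added 1, the pseudocount, understates differences of low transcripts, the more so the lower their RPKM. With a pseudocount of 0.1, 1075 accessions were higher at 6 months, against 918, and 4032 were higher in the fetal library, against 3411. The count of members higher at 6 months was 4 with either pseudocount. With 1 library per stage no p-value was computed. For centring, the 6-month values were scaled before the pseudocount was added. All 10 members are named, and they and the lists were chosen with earlier results of these data known. Of a list of 45 other genes of antioxidant defence and 6 cell marker lists, 0 symbols could be matched to an accession, because 0 of the 11663 accessions occur in the goat RefSeq table used (ARS1.2). The calling rule and the intervals were tried on simulated reads that held counting error only. Such reads cannot show how either behaves with variation between animals. Alternatives covered the pseudocount, the minimum RPKM, 4 other scalings, the threshold, members of more than 1 compartment and length. Computations used SciPy 1.17.1, NumPy 2.4.6 and pandas 2.3.3 under Python 3.11.15, and plots were drawn with matplotlib 3.10.9.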

Additional observations from a re-analysis of the deposited data

How the results depend on the processing

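No paired analysis was possible because each stage had 1 library, and for the same reason no replicate could be left out. Under all 9 alternatives for the calls, 3 to 5 of the 10 transcripts were higher at 6 months, and the fetal library was higher for 0. GPX3, PRDX3 and SOD2 were called under each of them, with differences of 2.55 to 3.35, 2.57 to 3.31 and 2.11 to 2.80 log2 units, and PRDX6 was not called at a threshold of 2 log2 units (1.38). On the deposited RPKM, SOD1, GPX1 and PRDX1 had negative differences (-0.55, -0.21 and -0.35), which became positive after centring on the median ratio (0.01, 0.36 and 0.23). CAT stood at 0.96 with transcripts-per-total scaling, 1.08 with totals without the 50 most abundant accessions, 1.42 after centring on the median ratio and 1.42 after centring on the trimmed mean ratio.

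With these 4 scalings in the same order, the log2 ratio of the cytosolic sums was 0.088, 0.21, 0.56 and 0.56, against -0.02 on RPKM, and that of the mitochondrial sums was 2.06, 2.18, 2.53 and 2.53, against 1.95. Without PRDX5 the mitochondrial value was 2.49. In reads without length, the mitochondrial members held 39.7% at 6 months, against 13.5% in the fetal library. Per covered length, an alternative chosen after seeing the data, it was 31.2% at 6 months, against 11.0% in the fetal library, and without GPX1 and PRDX5 the fetal share was 8.03%. Over all accessions, those higher at 6 months numbered 1674 (median ratio), 1678 (trimmed mean ratio) and 339 (threshold of 2), against 918. Those higher in the fetal library numbered 2162, 2157 and 1051, and 1811 with a pseudocount of 5, against 3411. Per covered length, the 6-month order of levels put PRDX3 before SOD2, and the fetal order put PRDX2 before PRDX1, SOD1 before CAT and PRDX6 before PRDX5. The spread between animals is unknown, and the cause of the dependence on scaling was not tested.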
